A study of Mus musculus with 2 samples.

Results

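The genes described here encode proteoglycan core proteins, the enzymes that make and degrade hyaluronan, and the enzymes that polymerise and sulfate glycosaminoglycan chains. They were chosen by symbol: every gene of the Has, Sdc, Gpc, Hs3st, Hs6st, Ndst, Chst, Sulf and Hyal families with a number after the family name, plus Ext1, Ext2, Hs2st1, Vcan, Acan, Ncan, Bcan, Hspg2, Agrn, Cd44, Hapln1 and Hapln3. The rule found 57 genes among the 17431 genes with at least 1 read in either library. It used no measured value.

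Poly(A) RNA of 2 cultures of dermal cells from BALB/c mice was sequenced, 1 library per cell type. Fibroblasts came from mice at postnatal day 3 and were kept in DMEM with serum (fetal bovine, 10%). Skin-derived precursors (SKPs), dermal cells with the potential to form several lineages, came from mice at postnatal day 4. Their DMEM/F12 medium held 40 ng/ml of FGF2, 20 ng/ml of EGF and B27 supplement at 2%. Cell type, medium, growth factors and age differ together between the libraries and cannot be told apart. The series compares the transcriptomes of these cell types. With 1 library per cell type no test was possible, and no p-value was computed.

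Glycosaminoglycans are long, negatively charged sugar chains. Hyaluronan is made at the plasma membrane without a core protein, whereas heparan sulfate, chondroitin sulfate and dermatan sulfate are built on serine residues of core proteins and then sulfated in the Golgi. The pattern of sulfate groups on heparan sulfate sets which growth factors it binds, and FGF signalling needs heparan sulfate as a coreceptor. In skin, hyaluronan and versican fill the dermis, perlecan lies in basement membranes, and syndecans and glypicans carry heparan sulfate on the cell surface.

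Levels are the deposited RPKM values (reads scaled by gene length and by the counted reads of the library), which allow comparison between genes. Ratios are RPKM of the SKP library over that of the fibroblast library, and the ranges in parentheses are 95% exact (Clopper-Pearson) counting intervals, which cover counting error only, not the spread between cultures. Genes with at least 20 reads and an RPKM of at least 1 in either library are termed expressed. A gene counts as higher or lower where its RPKM differed 2-fold or more between the libraries and the interval did not include a ratio of 1. Folds under 2 are given as values only. The libraries held 23374716 (fibroblast) and 22981183 (SKP) reads, with 81.65% and 85.13% aligned to genes. A count of 1 read per kilobase corresponds to 0.0543 RPKM for fibroblasts and 0.0528 RPKM for SKPs.

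The labels were checked against marker lists. All 10 fibroblast markers, among them Col1a1, Pdgfra and Vim, were expressed, with a summed level of 11770 RPKM for fibroblasts and 10567 RPKM for SKPs. Of these, Col3a1 (3.60-fold) and Dcn (6.89-fold) were higher in the SKP library, and Col1a1 (2.07-fold) and Thy1 (3.17-fold) were lower. Of 10 SKP and neural crest markers 9 were expressed, with Nes, Sox2 and Msx1 higher in the SKP library, Sox10 lower and Pax3 below the expression filter. Markers of other cell types differed as well. All 6 smooth muscle and myofibroblast markers were lower in the SKP library (summed level 57.4 RPKM against 3168). Mast cell (151 against 0.834), keratinocyte (38.2 against 3.34), leukocyte (29.4 against 4.40) and adipocyte (385 against 30.5) markers had larger summed levels there. Among the glia markers S100b was higher in the SKP library, and Sox10 and Mbp were lower. Of 6 endothelial and 6 melanocyte markers, only Cdh5 and Mitf were expressed, and both were higher in the SKP library. Fewer cells of a type and less RNA per cell cannot be told apart in bulk libraries.

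Sdc1 (syndecan-1) and the heparan sulfate 6-O-sulfotransferase genes Hs6st1 and Hs6st2 illustrate the range of the differences: Sdc1 was the abundant member with the largest excess in the SKP library, and Hs6st2 had the largest excess in the fibroblast library while its paralog Hs6st1 was under 2-fold apart. Their promoter windows, from 250 bases before to 50 bases after the RefSeq start on build GRCm38.p6, are printed 5′ to 3′ on the gene's strand so that the start regions of the Hs6st pair can be compared. Capitals mark GC boxes (GGGCGG, either strand). Sdc1 lies at chr12:8771146-8771445 on the plus strand, Hs6st1 at chr1:36068150-36068449 on the plus strand, and the starts of Hs6st2 at chrX:51680428-51680727 and chrX:51681553-51681852 on the minus strand.
Sdc1: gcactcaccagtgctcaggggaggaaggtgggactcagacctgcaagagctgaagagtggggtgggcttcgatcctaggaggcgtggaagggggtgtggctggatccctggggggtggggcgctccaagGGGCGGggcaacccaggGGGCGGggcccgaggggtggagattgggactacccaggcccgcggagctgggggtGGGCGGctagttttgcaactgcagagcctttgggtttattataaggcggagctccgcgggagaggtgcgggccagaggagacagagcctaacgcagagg
Hs6st1: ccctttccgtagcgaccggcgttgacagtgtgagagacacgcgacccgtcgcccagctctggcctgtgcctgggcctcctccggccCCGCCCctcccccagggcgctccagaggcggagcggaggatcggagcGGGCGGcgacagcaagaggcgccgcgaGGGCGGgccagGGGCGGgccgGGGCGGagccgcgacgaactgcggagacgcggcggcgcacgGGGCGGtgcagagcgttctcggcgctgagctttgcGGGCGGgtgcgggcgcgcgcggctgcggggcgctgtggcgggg
Hs6st2 (start at the lower coordinates): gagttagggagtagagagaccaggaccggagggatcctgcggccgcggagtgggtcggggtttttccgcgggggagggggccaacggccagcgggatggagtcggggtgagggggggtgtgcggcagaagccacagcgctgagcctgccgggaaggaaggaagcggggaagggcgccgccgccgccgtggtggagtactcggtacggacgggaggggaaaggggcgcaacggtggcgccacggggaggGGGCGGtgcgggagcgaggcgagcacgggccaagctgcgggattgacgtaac
Hs6st2 (start at the higher coordinates): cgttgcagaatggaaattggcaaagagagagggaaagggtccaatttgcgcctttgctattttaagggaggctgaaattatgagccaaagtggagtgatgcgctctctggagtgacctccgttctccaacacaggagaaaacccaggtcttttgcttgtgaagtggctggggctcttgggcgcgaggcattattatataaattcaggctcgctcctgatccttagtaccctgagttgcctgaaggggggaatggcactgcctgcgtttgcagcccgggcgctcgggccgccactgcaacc

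The Hs6st1 window held 7 GC boxes and 47 CpG dinucleotides. The Hs6st2 windows held 1 GC box with 33 CpG dinucleotides and 0 GC boxes with 12 CpG dinucleotides, and the latter window also held the TATA motif TATAAA (either strand). Sdc1 had 3 GC boxes and 14 CpG dinucleotides. RefSeq windows were found for 45 of the 57 members, 50 windows in all, of which 38 (76.0%) held a GC box and 5 (10.0%) held TATAAA. Among all 32851 windows, which include non-coding genes, the shares were 35.7% and 13.6%. The median number of CpG dinucleotides was 20.5 per window for the members and 7 over all windows. A match is a description of the letters in the window only.

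Of the 57 members 39 were expressed. In SKPs 12 of them were higher by 2-fold or more and 3 were lower, and the other 24 were under 2-fold apart. The 12 higher members are 30.8% of those expressed, beside 12.1% of all 12053 expressed genes, and the 3 lower members are 7.69%, beside 6.41%. The median log2 ratio was 0.37 for the expressed members and -0.01 for all expressed genes. The filter itself bears on this count, since 7 members (Has3, Hapln3, Hs3st1, Hs3st5, Hs3st6, Chst1 and Chst8) passed it through the SKP library alone and all 7 were higher there. Of the 32 members that passed in both libraries 5 were higher (15.6%, beside 7.44% of 10874 genes) and 3 were lower (9.38%, beside 4.66%). The 5 were Sdc1, Chst15, Ndst1, Agrn and Chst10, and the 3 were Hs6st2, Sulf1 and Gpc6. These shares describe the 2 libraries and have no replicate check.

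**Figure D1:**
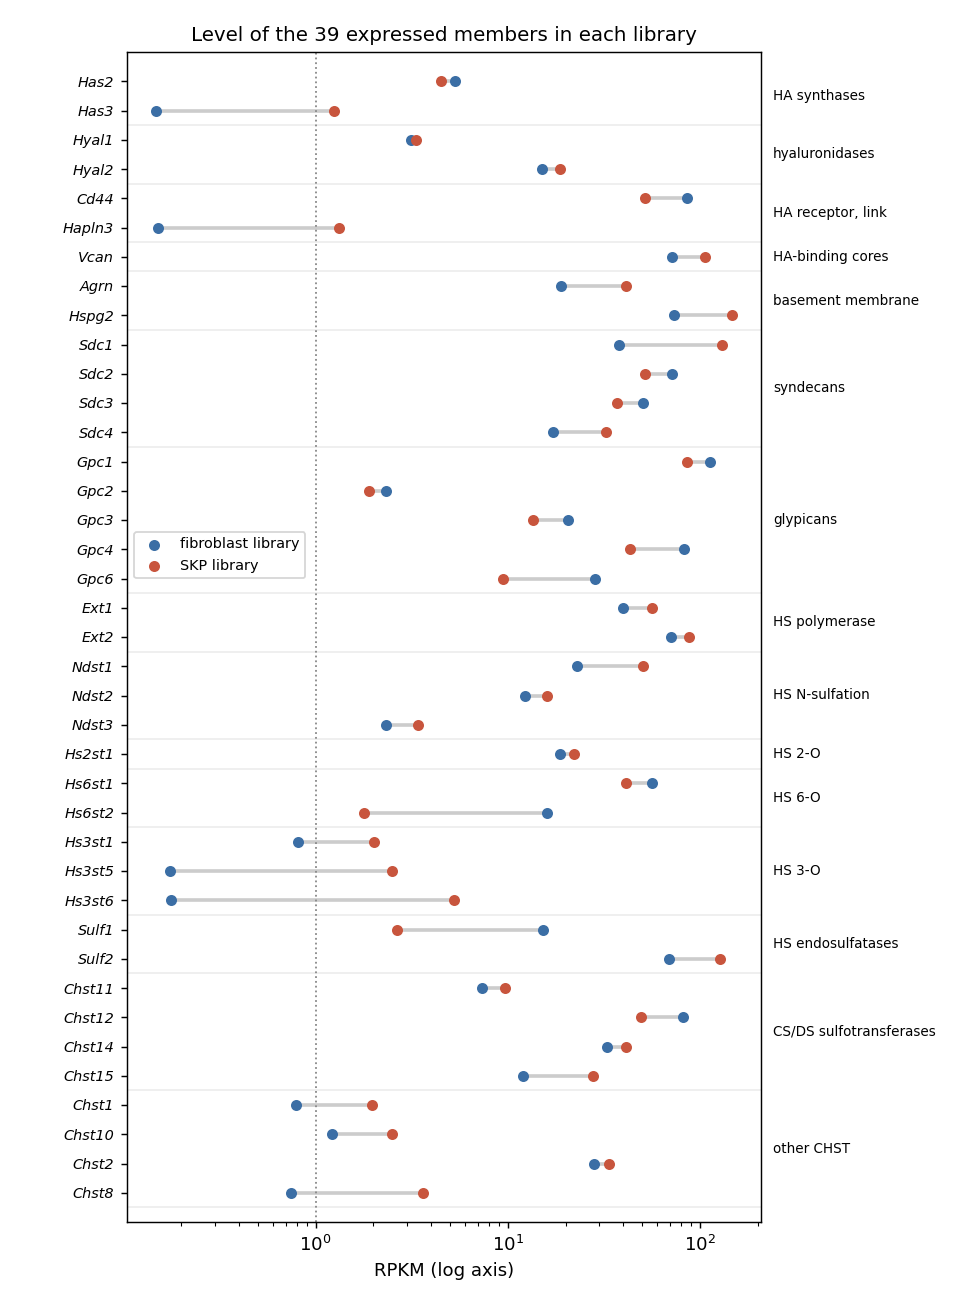
Level of each of the 39 expressed members, in RPKM on a log axis, in the fibroblast library (blue) and the SKP library (red), ordered by role; HA is hyaluronan, HS heparan sulfate, CS/DS chondroitin and dermatan sulfate, and the dotted line is RPKM 1. The widest gaps are those of Hs3st5 and Hs3st6, below 6 RPKM in both, and of Hs6st2, Sulf1, Has3 and Hapln3.

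The order of abundance differed between the libraries. In the fibroblast library the most abundant member was the glypican gene Gpc1 (113 RPKM), followed by the hyaluronan receptor gene Cd44 (86.1), Gpc4 (82.2), the chondroitin sulfotransferase gene Chst12 (82.1) and the perlecan gene Hspg2 (73.7). Gpc4 and Chst12 stood at nearly the same level. In the SKP library Hspg2 came first (146 RPKM), followed by Sdc1 (130), the heparan sulfate endosulfatase gene Sulf2 (128), the versican gene Vcan (106) and the polymerase gene Ext2 (88.2). Sdc1 ranked 13 in the fibroblast library, whereas Gpc1 still ranked 6 in the SKP library.

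**Figure D2:**
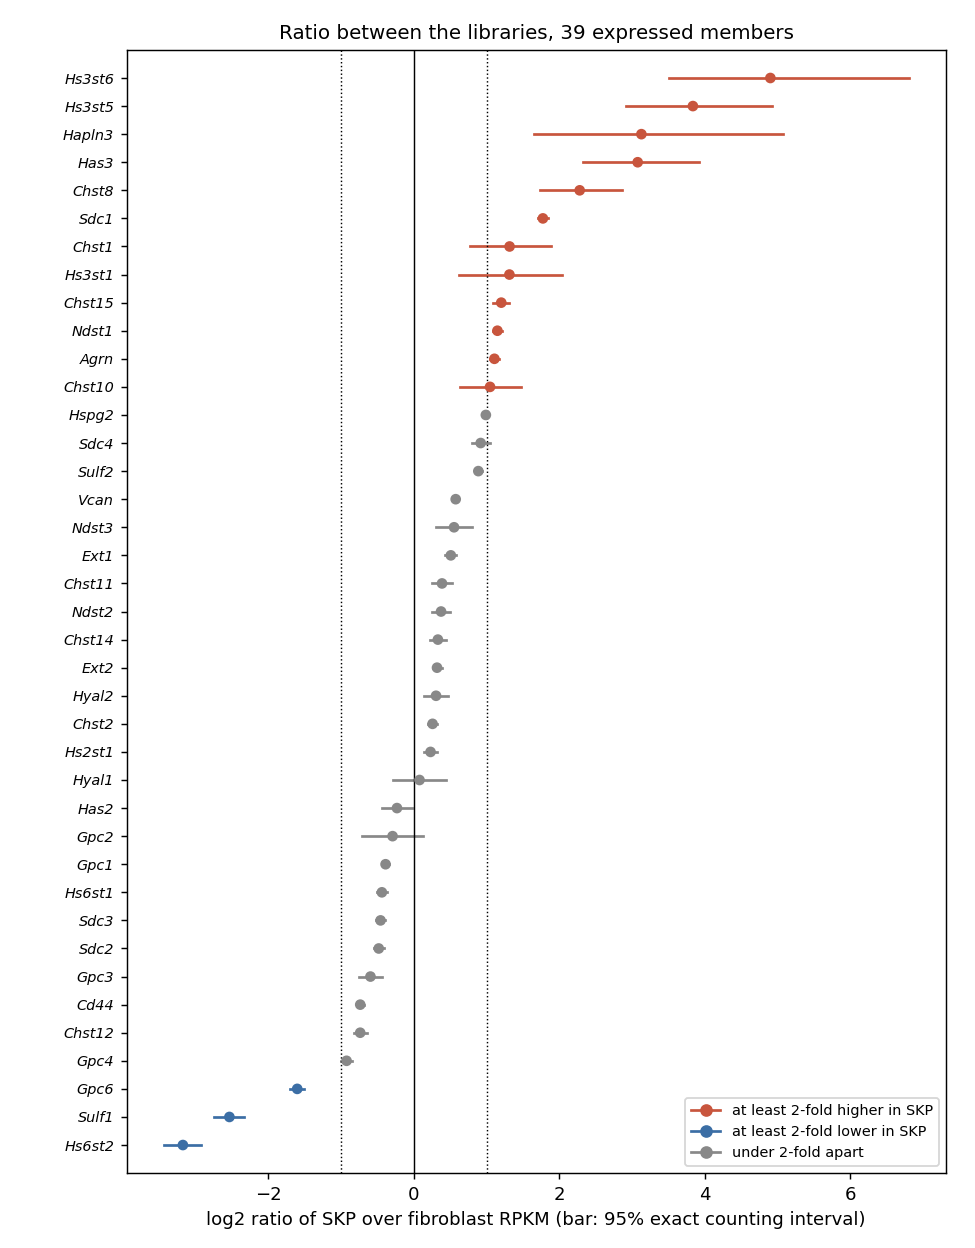
Log2 ratio of SKP over fibroblast RPKM for the 39 expressed members, with 95% exact counting intervals as bars; dotted lines mark 2-fold. The intervals are wide for the members with few reads (Hs3st6, Hs3st5, Hapln3) and narrower than the points for abundant ones such as Hspg2, which lies just under 2-fold.

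The summed RNA level of the hyaluronan synthase genes was close between the libraries, while their shares of it differed. Hyaluronan itself was not measured. Has2, the main synthase gene of dermal mesenchyme, stood at 5.29 RPKM in fibroblasts (415 reads) and 4.51 in SKPs (364 reads), a ratio of 0.852 (0.738 to 0.983). Has3 stood at 0.147 RPKM (16 reads) and 1.24 RPKM (139 reads), a ratio of 8.44 (5.02 to 15.2). Has1 lay below the filter in both libraries, with 19 reads in fibroblasts and 14 in SKPs. The summed level of the 3 synthase genes was 5.93 RPKM in fibroblasts and 6.10 in SKPs. Has3 made up 2.48% of that sum in fibroblasts and 20.3% in SKPs, while Has2 made up 89.3% and 73.9%. The antisense RNA Has2as had 1 read in fibroblasts and 4 in SKPs, and because the strand of the reads is not given, its reads and those of Has2 cannot be told apart. Has3 is also active in epidermis, and all 7 expressed keratinocyte markers of 10 listed were higher in the SKP library. Krt14 stood there at 13.4 RPKM against 0.970 and Krt5 at 9.13 against 0.843, and in fibroblasts Krt1 and Ivl were at 0 reads. The part of such cells in the Has3 level was not tested.

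The hyaluronidase genes were close between the libraries. Hyal2, which encodes the membrane-anchored enzyme that starts hyaluronan breakdown, stood at 15.1 RPKM in fibroblasts and 18.7 in SKPs (ratio 1.24, 1.10 to 1.39). Hyal1, the lysosomal enzyme gene, stood at 3.14 and 3.32 RPKM (1.06, 0.823 to 1.36). Hyal3 lay below the filter with 27 and 21 reads, and Hyal6 had 1 and 0 reads. The reads of Hyal3 covered 20.87% and 24.48% of the gene length, where an even spread of the same number of 49-base reads would cover 51.5% and 43.0%. Hyal3 overlaps Hyal1 and Naa80 (462 reads in fibroblasts and 514 in SKPs) in the RefSeq annotation, so the split of reads among these genes is uncertain.

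Cd44, the main cell-surface receptor of hyaluronan, was the second most abundant of the 57 genes in the fibroblast library. It stood at 86.1 RPKM there (8962 reads) and at 51.7 in SKPs (5540 reads), and was 1.67-fold higher in fibroblasts (1.61 to 1.72). Its reads covered 92.25% of the 5654-base gene length in fibroblasts and 88.22% in SKPs, which left 438 and 666 bases without a read. Cd44 is spliced with a varying set of internal exons, but which bases lacked reads is not given by the coverage values.

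Of the 4 hyaluronan-binding proteoglycan genes, only Vcan was expressed in these libraries. Vcan, a chondroitin sulfate proteoglycan of loose mesenchyme, stood at 71.3 RPKM in fibroblasts and 106 in SKPs (1.49, 1.46 to 1.52). The genes of its cartilage and brain relatives, Acan, Ncan and Bcan, had at most 15 reads in either library. Acan, which encodes aggrecan, had 2 and 1 reads, Bcan 9 and 2, and Ncan 1 and 15. The link proteins tie these proteoglycans to hyaluronan. Hapln3 stood at 0.152 RPKM (4 reads) in fibroblasts and 1.33 (36 reads) in SKPs, a ratio of 8.74 (3.13 to 33.8). Hapln1 had 0 reads in fibroblasts and 45 in SKPs, which is at least 14.6-fold higher in SKPs against a floor of 3 reads, a bound that leaves out the counting error of the SKP reads. At 0.470 RPKM it stayed below the filter.

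The basement membrane cores were about 2-fold apart. Hspg2, which encodes perlecan, stood at 73.7 RPKM in fibroblasts (19267 reads) and 146 in SKPs (39405 reads). Its ratio of 1.99 (1.95 to 2.02) lay just under the limit. Agrn, which encodes agrin, stood at 19.0 and 41.0 RPKM, a ratio of 2.16 (2.06 to 2.26). The ratios of both genes were thus close to each other, and only Agrn counted as higher.

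Among the syndecans, the transmembrane cores of heparan sulfate, ratios lay on both sides of 1, and only Sdc1 was 2-fold apart or more. Sdc1 stood at 38.1 RPKM in fibroblasts (2146 reads) and 130 in SKPs (7558 reads), a ratio of 3.42 (3.26 to 3.59). Sdc4, a partner of integrins in focal adhesions, stood at 17.1 and 32.4 RPKM, a ratio of 1.89 (1.73 to 2.07). Sdc2 stood at 72.0 and 51.6 RPKM and was 1.40-fold higher in fibroblasts (1.33 to 1.46). Sdc3 stood at 50.7 and 36.9 RPKM and was 1.37-fold higher there (1.31 to 1.44). In the summed syndecan level, 178 RPKM in fibroblasts and 251 in SKPs, Sdc1 took 21.4% and 51.9%, and Sdc2 took 40.5% and 20.5%. Sdc1 is abundant in epidermal cells, whose 10 markers summed to 3.34 RPKM in fibroblasts and 38.2 RPKM in SKPs. The part of epidermal cells in that level was not tested.

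The glypicans, which hold heparan sulfate on the surface through a lipid anchor, had ratios below 1 in all 5 expressed genes, although the interval of Gpc2 included equality. Gpc6 stood at 28.6 RPKM in fibroblasts (3556 reads) and 9.41 in SKPs (1206 reads) and was 3.04-fold higher in fibroblasts (2.84 to 3.24). Gpc4 stood at 82.2 and 43.3 RPKM, 1.90-fold higher in fibroblasts (1.79 to 2.01), and Gpc3, a binder of hedgehog ligands, at 20.6 and 13.6 RPKM, 1.51-fold higher (1.36 to 1.68). Gpc1 stood at 113 and 86.2 RPKM, 1.31-fold higher in fibroblasts (1.26 to 1.35). Gpc2 stood at 2.31 and 1.89 RPKM (ratio 0.817, 0.610 to 1.09), and Gpc5 had 2 reads in fibroblasts and 0 in SKPs. Of these, only Gpc6 was 2-fold apart or more. The summed glypican level was 246 RPKM in fibroblasts and 154 in SKPs. The ratio of the summed syndecan level to the summed glypican level was 0.722 in fibroblasts and 1.63 in SKPs.

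**Figure D3:**
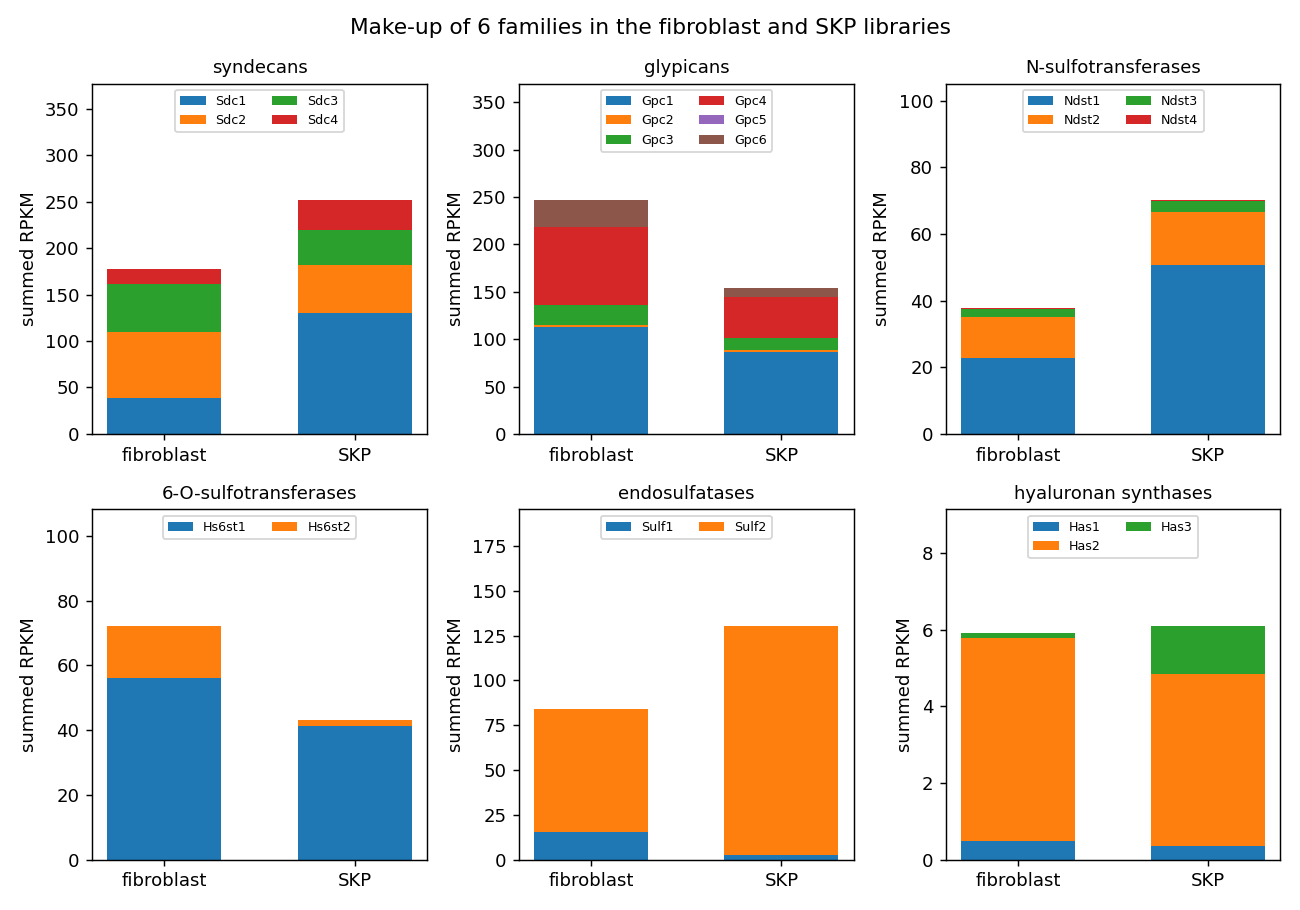
Summed RPKM of 6 families in the fibroblast and SKP libraries, with each member's part as a coloured block; every axis starts at 0 and each panel has its own scale. In fibroblasts and SKPs, Sdc1 makes up 21.4% and 51.9% of the syndecan level, Sulf1 makes up 18.1% and 2.03% of the endosulfatase level, and Hs6st2 makes up 22.3% and 4.13% of the 6-O-sulfotransferase level.

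Among the members for heparan sulfate polymerisation and N-sulfation, Ndst1 was higher in the SKP library. The other 4 expressed members of these roles had ratios between 1.25 and 1.47. Ext1 and Ext2 form the polymerase. Ext1 stood at 39.6 RPKM in fibroblasts and 56.4 in SKPs (1.42, 1.35 to 1.497), and Ext2 at 70.7 and 88.2 (1.25, 1.20 to 1.30). The Ndst enzymes replace acetyl with sulfate on glucosamine, the step on which later sulfation depends. Ndst1 stood at 22.8 RPKM (2558 reads) and 50.6 RPKM (5841 reads), a ratio of 2.22 (2.12 to 2.32). Ndst2 stood at 12.3 and 16.0 RPKM (1.30, 1.19 to 1.42) and Ndst3 at 2.32 and 3.41 (1.47, 1.24 to 1.74). Ndst4 lay below the filter with 17 and 6 reads. Ndst1 made up 60.5% of the summed N-sulfotransferase level in fibroblasts and 72.2% in SKPs. Ndst2 is needed for heparin in mast cells, and 7 of 9 mast cell markers were higher in the SKP library, where Tpsab1 stood at 68.1 RPKM against 0.593. In fibroblasts Cpa3 and Mcpt4 were at 0 reads, against 330 and 191 in SKPs. The mast cell markers Fcer1a (0 reads in fibroblasts and 2 in SKPs) and Ms4a2 (2 and 1) lay below the filter. The part of mast cells in the Ndst2 level was not tested.

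Among the genes of 2-O- and 6-O-sulfation only Hs6st2 was 2-fold apart or more. Hs2st1, the only 2-O-sulfotransferase gene for heparan sulfate, stood at 18.8 RPKM in fibroblasts and 22.0 in SKPs (1.17, 1.10 to 1.25). Both 6-O-sulfotransferase genes that had reads showed ratios below 1, and Hs6st2 was lower in SKPs. Hs6st2 stood at 16.1 RPKM in fibroblasts (1253 reads) and 1.78 in SKPs (143 reads), and was 9.02-fold higher in fibroblasts (7.58 to 10.8). Hs6st1 stood at 56.0 and 41.4 RPKM, 1.36-fold higher in fibroblasts (1.29 to 1.42). These are the genes whose start regions are printed above. The summed 6-O-sulfotransferase level was 72.1 RPKM in fibroblasts and 43.1 in SKPs, of which Hs6st2 made up 22.3% and 4.13%.

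Sulf1 and Sulf2 encode extracellular enzymes that remove 6-O-sulfate from finished heparan sulfate. Sulf1 was lower in SKPs, and the ratio of Sulf2 was above 1 but under 2-fold. Sulf1 stood at 15.3 RPKM in fibroblasts (1305 reads) and 2.64 in SKPs (232 reads), and was 5.79-fold higher in fibroblasts (5.03 to 6.69). Sulf2 stood at 69.0 RPKM (5017 reads) and 128 RPKM (9551 reads), a ratio of 1.85 (1.79 to 1.91). Sulf2 was the more abundant gene in both libraries, and the summed endosulfatase level was 84.3 RPKM in fibroblasts and 130 in SKPs. The ratio of the summed endosulfatase level to the summed 6-O-sulfotransferase level was 1.17 in fibroblasts and 3.02 in SKPs, 2.58-fold apart. These are RNA levels, and enzyme activity and chain sulfation were not measured.

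The 3-O-sulfotransferases add a rare modification to heparan sulfate. Their genes were low in both libraries. Hs3st6 stood at 0.176 RPKM in fibroblasts (4 reads) and 5.26 in SKPs (123 reads), a ratio of 29.9 (11.4 to 111). Hs3st5 stood at 0.174 RPKM (10 reads) and 2.48 RPKM (147 reads), a ratio of 14.3 (7.55 to 30.4). Hs3st1 stood at 0.806 RPKM (25 reads) and 2.00 RPKM (64 reads), a ratio of 2.49 (1.54 to 4.12). All of these passed the filter through the SKP library alone. Hs3st3a1 had 41 reads in fibroblasts and 30 in SKPs, Hs3st3b1 had 44 and 57, and Hs3st4 had 2 and 7, all below the filter. The reads of Hs3st6 were spread over the gene, with 90.6% of its length covered in the SKP library.

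The Chst genes for chondroitin and dermatan sulfate kept nearly the same summed level, 135 RPKM in fibroblasts and 129 in SKPs. Within this sum the genes differed. Ust, a further sulfotransferase gene of these chains, is outside the sum and stood at 2.74 RPKM in fibroblasts and 12.7 in SKPs. Chst12, which sulfates chondroitin at position 4, stood at 82.1 RPKM in fibroblasts (2722 reads) and 49.3 in SKPs (1682 reads), 1.67-fold higher in fibroblasts (1.57 to 1.77). Chst15, which adds a further sulfate to chondroitin sulfate, stood at 12.0 RPKM (944 reads) and 27.7 RPKM (2236 reads), a ratio of 2.30 (2.13 to 2.48). Chst14, the dermatan sulfotransferase gene, stood at 33.0 and 41.5 RPKM (1.26, 1.17 to 1.36) and Chst11 at 7.39 and 9.66 RPKM (1.31, 1.19 to 1.44). Chst3 (27 and 57 reads), Chst7 (10 and 8) and Chst13 (5 and 5) lay below the filter. Chst12 made up 60.8% of the summed level in fibroblasts and 38.2% in SKPs, and Chst15 made up 8.90% and 21.5%.

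The remaining Chst genes sulfate other glycans. Chst2, a sulfotransferase of N-acetylglucosamine, was the abundant gene of the group at 28.0 RPKM in fibroblasts and 33.5 in SKPs (1.20, 1.14 to 1.25). Chst8, which sulfates N-acetylgalactosamine on glycoprotein hormones, stood at 0.748 RPKM (33 reads) and 3.63 RPKM (165 reads), a ratio of 4.86 (3.33 to 7.29). Chst1, a keratan sulfate sulfotransferase gene, stood at 0.790 and 1.97 RPKM (2.49, 1.70 to 3.70). Chst10, which completes the HNK-1 epitope of neural and neural crest cells, stood at 1.21 and 2.51 RPKM (2.07, 1.55 to 2.79). Chst5 had 1 read in each library and Chst9 had 0 in fibroblasts and 1 in SKPs.

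Other genes of glycosaminoglycan synthesis, breakdown and binding were taken from a list of 79 symbols, of which 78 had reads and 66 were expressed. Of these, 12 were higher in the SKP library (18.2%, beside 12.1% of all expressed genes) and 3 were lower (4.55%, beside 6.41%), with a median log2 ratio of 0.31. With the filter met in both libraries 6 of 58 were higher (10.3%, beside 7.44%) and only Cemip was lower (1.72%, beside 4.66%). At 3-fold the share of lower genes was instead above that of all genes (4.55%, beside 3.04%), so no direction is read from these few genes. The group for the linker and chain synthesis, which also holds the HNK-1 gene B3gat1, had 20 expressed genes. In this group 4 were higher and 0 lower, beside 12.1% and 6.41% of all expressed genes. Xylt1, which starts glycosaminoglycan chains by adding xylose to the core protein, stood at 1.93 RPKM in fibroblasts and 11.04 in SKPs (5.72, 4.66 to 7.07). Ust, a uronyl 2-O-sulfotransferase gene of chondroitin and dermatan sulfate, had a ratio of 4.63 (4.00 to 5.39) and Chsy3, a chondroitin synthase gene, of 3.19 (2.77 to 3.68). B3gat1, which acts before Chst10 in making the HNK-1 epitope, had 7 and 112 reads and a ratio of 15.5 (7.30 to 39.5). Dsel, an epimerase gene of dermatan sulfate, had a ratio of 1.95. Csgalnact1 (47.7 and 35.1 RPKM) was the most abundant gene of this group in fibroblasts and Chpf (35.7 and 57.2 RPKM) in SKPs.

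Of 18 expressed genes for sugar precursors and sulfate supply, 1 was higher in SKPs, beside 12.1% of all expressed genes. That gene was Gfpt2, of the hexosamine pathway, at 10.7 and 25.5 RPKM (2.38, 2.16 to 2.62). Ugdh, which makes the glucuronic acid donor, stood at 45.8 and 43.7 RPKM, and Slc35b2, the Golgi transporter of activated sulfate, at 26.9 and 33.4. Of 17 expressed breakdown genes 3 were higher and 1 was lower, beside 12.1% and 6.41% of all expressed genes. The lower gene was Cemip, which encodes a hyaluronan-degrading protein, at 28.0 RPKM in fibroblasts (3663 reads) and 1.29 in SKPs (174 reads), 21.7-fold higher in fibroblasts (18.6 to 25.4). Its relative Cemip2 went the other way, at 6.62 and 18.8 RPKM (2.84, 2.62 to 3.08). Arsb, a lysosomal sulfatase gene, had a ratio of 2.33 (2.17 to 2.51) and Hpse, the heparanase gene, of 2.25 (1.60 to 3.19), at 0.899 and 2.02 RPKM. The lysosomal enzyme gene Hexa stood at 126 and 157 RPKM.

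Of 11 expressed receptors and other cores 4 were higher and 2 were lower, beside 12.1% and 6.41% of all expressed genes. Higher were Srgn, the serglycin gene of mast cells and leukocytes (1 and 37 reads, with the part of these cells not tested), Itih5 (0.198 and 5.34 RPKM, 26.9, 18.6 to 40.4), Cspg5 (7 and 146 reads) and Spock2 (15 and 114 reads). Lower were Ptprz1, at 1.76 and 0.177 RPKM, and Hapln4, at 1.56 and 0.295 RPKM. Tgfbr3, the betaglycan gene, was the most abundant at 45.4 and 75.4 RPKM, and Layn, a hyaluronan receptor gene, stood at 19.8 and 33.0 RPKM.

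**Figure D4:**
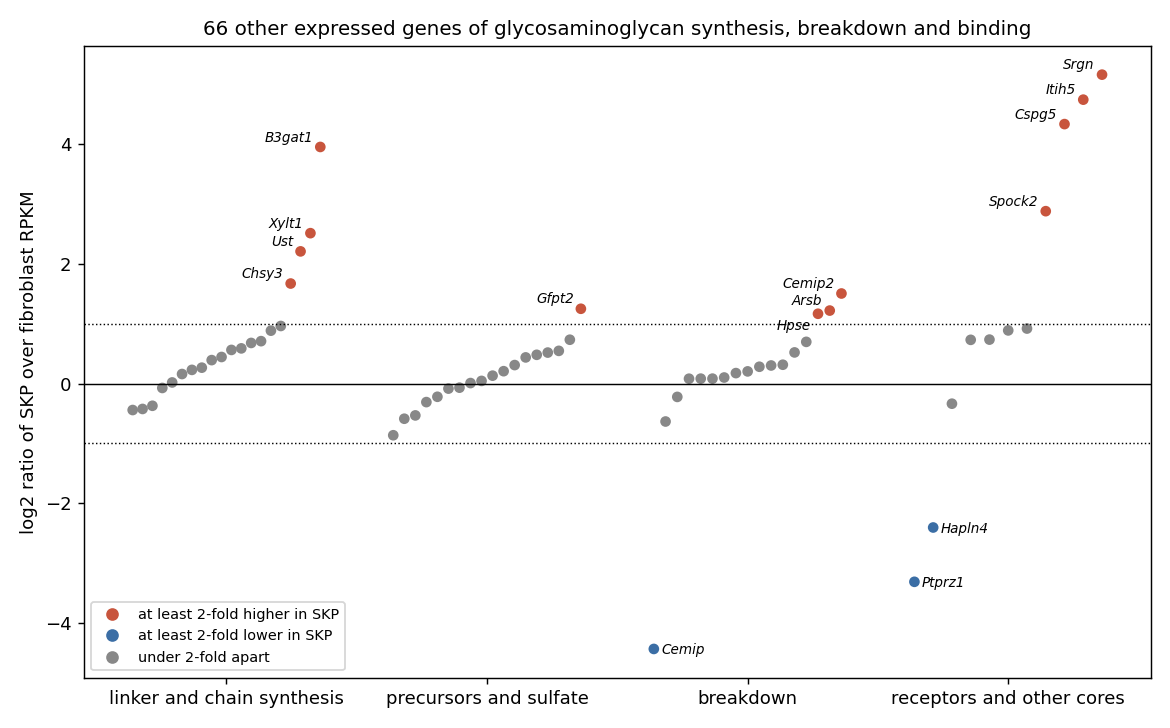
Log2 ratio of SKP over fibroblast RPKM for the 66 expressed genes of the wider pathway, 1 point per gene, in 4 groups; dotted lines mark 2-fold and genes past it are named. Most points lie between the dotted lines, Cemip is the lowest point and Srgn, which had 1 fibroblast read, is the highest.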

How the data were processed

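Groups follow the cell type that the labels give. Per the file headers of the deposited mapping summaries, which give shares in percent, reads of 49 bases were aligned to genes and 2 mismatches were allowed. The deposited count per gene is a whole number of reads with no normalization, per the file headers. The deposited RPKM values scale that count by gene length and by all counted reads. Coverage, deposited as a percent, tells how much of a gene's length had reads. The authors' deposited table compares the libraries by the log2 of fibroblast over SKP RPKM, with a p-value and an FDR. The sources used here do not state its test, the aligner, the counter or the strand. The submitters' processing notes name build mm9. Sequences and gene overlaps came from RefSeq tables of GRCm38.p6, in which all 57 members matched by gene ID, so no coordinates of the files' build are printed.

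Between 19.69% and 21.69% of reads matched several positions, so the split between close paralogs is uncertain. Of the expressed members 5 overlap another gene with reads. Ratios and intervals were computed with scipy 1.17.1, numpy 2.4.6 and pandas 2.3.3 (Python 3.11.15) and were tested on simulated reads. Figures were drawn with matplotlib 3.10.9, and TMM factors came from edgeR 4.0.16 in R 4.3.3. For a gene with 0 reads the floor was 3 reads, and no fold is given where the other library had 3 reads or fewer. Since PCR copies are not separate molecules, intervals and floors cover counting error only. The members and lists were chosen with earlier results of these data known. All members may be named; of the wider pathway, up to 5 genes per group with the largest ratio and the 2 most abundant were eligible to be named, and counts of 5 or fewer higher or lower genes are named. Some of the listed genes are not reported here.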

Additional observations from a re-analysis of the deposited data

How the results depend on the processing

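No paired analysis was possible because each cell type has 1 library, and leaving out a library leaves no comparison. With edgeR's TMM factors and with median-of-ratios factors the same 12 members were higher and the same 3 lower, and all 39 log2 ratios stayed within their counting intervals. With log2(RPKM + 1) values, 8 members stayed higher, beside 9.11% of all genes, and the same 3 lower, beside 4.21%, and 9 of 39 log2 ratios left their intervals. With RPKM 5 or more, 5 of 29 members (Agrn, Chst15, Hs3st6, Ndst1 and Sdc1) were higher, beside 9.23% of all genes. Of 55 genes of the wider pathway 7 were higher (12.7%), and 1, Cemip, was lower (1.82%, beside 5.33% of all genes). With a mean RPKM of 1 or more, 1 of 62 genes of the wider pathway, Cemip, was lower (1.61%, beside 5.84% of all genes). Without a filter 5 of 75 were lower (Cemip, Ptprz1, Hapln4, B3gat2 and Spock3), which is 6.67%, beside 7.08% of all genes. At 3-fold, 6 members were higher, beside 7.78% of all genes, and the same 3 lower, beside 3.04%. With the filter met in both libraries, chosen after seeing the data, 5 of 32 members were higher, beside 7.44% of all genes. Of 58 genes of the wider pathway 6 were higher (10.3%) and 1, Cemip, lower (1.72%, beside 4.66% of all genes). The filters differ in which low genes they admit. The authors' deposited table, at FDR 0.001 or less and 2-fold, held 14 members higher in SKPs, beside 10.5% of all genes, and the same 3 lower, beside 4.8%. From reads without length scaling the shares in fibroblasts and SKPs were 18.0% and 47.9% for Sdc1, 20.6% and 2.37% for Sulf1, 69.3% and 79.2% for Ndst1 and 23.1% and 12.6% for Gpc6, and 24.6% in fibroblasts for Hs6st2. Depth limits members under about 20 reads.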
